A study of Mus with 6 samples.

Results

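The angiopoietin and Tie receptor system was followed in cardiac endothelial cells of mice through 5 genes, chosen by name, of 20893 in the deposited expression table: the receptors Tek (also called Tie2) and Tie1, the phosphatase Ptprb (also called VE-PTP), and the secreted ligands Angpt2 and Angpt1. The cells were CD31-positive, CD45-negative cells taken with magnetic beads, where CD31, the product of Pecam1, marks endothelium and CD45, the product of Ptprc, marks leukocytes. The Ccl28 knockout (KO) group and the wild-type (WT) group had 3 libraries each, with replicate numbers 2, 3 and 4 in both, and both groups had been operated on to tie off the left coronary artery, a model of infarction. Strain, sex, age and time after ligation were not given in the sources used here, nor whether replicates came from different mice, so every p-value here measures only the spread between these libraries, which may be technical. The genotype field of KO replicates 3 and 4 names Ccl29 and Ccl30, against their titles, and the titles were followed.

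Angiopoietin-1 is the activating ligand of Tek, a receptor tyrosine kinase of endothelium, and is secreted mainly by perivascular and other mesenchymal cells. Through the kinases PI3K and AKT, active Tek keeps the transcription factor FOXO1 out of the nucleus, which stabilises the vessel wall. Angiopoietin-2 is made by endothelial cells themselves, is stored for release, is itself a FOXO1 target, and can block or weakly activate Tek depending on the setting. Tie1 binds no angiopoietin directly but pairs with Tek and modulates its signal, and Ptprb removes phosphate from Tek and from proteins of endothelial junctions.

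The KO libraries held 36004457 to 37780513 reads and the WT libraries 39104282 to 40500067, as recovered from the deposited values. Ccl28, the targeted chemokine gene, had 0 reads in each KO library, against 16, 11 and 24 reads in WT replicates 2, 3 and 4. Pecam1 lay at 560.5 to 647.7 FPKM in KO and 673.2 to 743.9 FPKM in WT, so the gate's marker was abundant in every library. Ptprc lay at 1.01 to 1.41 FPKM in KO and 0.871 to 1.71 FPKM in WT. FPKM count fragments relative to the length of the transcript and the depth of the library, so levels of different genes can be compared within a library. Differences between genotypes are log2 fold changes, KO minus WT, on log2(FPKM + 1), from limma over 10806 genes with at least 1 FPKM in at least 3 libraries, and a gene was called at a Benjamini-Hochberg adjusted p under 0.05.

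By that test 3 of the 5 genes were lower in KO, namely Ptprb, Angpt2 and Tek. Tie1 lay lower in all KO libraries without passing, and Angpt1 was below the filter and outside the test. Of all 10806 genes tested, 25.8% were called lower in KO, 18.3% higher and 44.2% in either direction, so a call by itself does not set a gene apart here. The groups did not overlap for 4 of the 5 genes, each lower in KO, as was true of 31.9% of all tested genes, while 54.7% did not overlap in either direction. In bulk libraries, fewer cells of a type and less RNA per cell cannot be told apart.

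**Figure D1:**
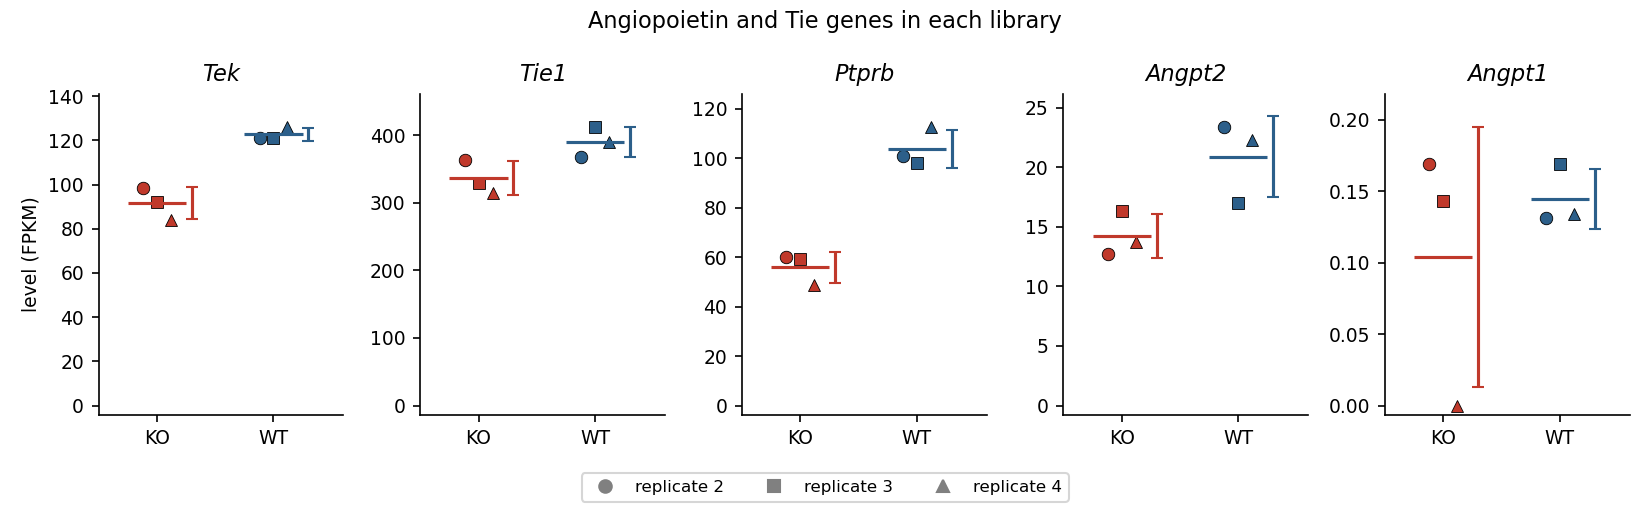
Level of the 5 genes in each library, in FPKM on linear axes of their own. Points are libraries (the marker gives the replicate number), horizontal lines are group means and the bars beside them are SD over 3 libraries, with KO left of WT; Angpt1 is at 0 in KO replicate 4.

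The receptors came first in level. Tie1 was the most abundant of the 5 genes in every library, with 363.9, 329.4 and 315.1 FPKM in KO replicates 2, 3 and 4, against 367.2, 412.3 and 389.8 FPKM in WT replicates 2, 3 and 4. The lowest WT library lay just above the highest KO library, and the means were 336.1 ± 25.1 FPKM in KO and 389.7 ± 22.6 FPKM in WT (SD, n = 3 each). The log2 fold change was -0.21 (SE 0.0818, 95% interval -0.40 to -0.03), which limma gave an adjusted p of 0.0571. By mean level Tie1 ranked 195 among the tested genes in KO and 136 in WT. The Tie1 gene, ID 21846, lies on mouse chromosome 4 from 118471191 to 118489849 (GRCm38).

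Tek shares that chromosome, from 94739086 to 94874976 (gene ID 21687), and was the second most abundant. It had 98.6, 92.0 and 84.0 FPKM in the KO libraries, against 121.0, 121.1 and 126.1 FPKM in the WT libraries. All KO values lay below all WT values, and the WT libraries were close together, with means of 91.5 ± 7.30 FPKM in KO and 122.7 ± 2.92 FPKM in WT (SD, n = 3 each). Tek fell by 0.42 on the log2 scale (SE 0.0749, 95% interval -0.59 to -0.25, limma adjusted p = 0.002). The change of the mean FPKM was -25.4%. In the authors' deposited table, Tek had a log2 fold change of -0.36 with q = 4.4e-05 and Tie1 one of -0.16 with q = 0.171.

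Ptprb showed the largest difference of the 5 genes. It had 60.0, 59.1 and 48.6 FPKM in the KO libraries, against 100.8, 98.2 and 112.6 FPKM in the WT libraries. The groups were well apart: the highest KO library was far below the lowest WT library. Ptprb fell by 0.89 on the log2 scale (SE 0.0944, 95% interval -1.10 to -0.67, limma adjusted p = 0.000456), and 134 of the 10806 tested genes (1.24%) had a lower log2 fold change. The gene, ID 19263, lies on chromosome 10 from 116275502 to 116389538. The authors' deposited table gives Ptprb a log2 fold change of -0.83 and q = 1.38e-17. Tek was above Ptprb in level in all 6 libraries, and Ptprb above Angpt2.

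Angpt2, the ligand that endothelial cells make, had 12.7, 16.3 and 13.7 FPKM in the KO libraries, against 23.4, 17.0 and 22.3 FPKM in the WT libraries. KO replicate 3 and WT replicate 3 nearly met, and the other 4 libraries were clearly separated by genotype. The means were 14.2 ± 1.85 FPKM in KO and 20.9 ± 3.43 FPKM in WT (SD, n = 3 each). Angpt2 fell by 0.52 on the log2 scale (SE 0.127, 95% interval -0.80 to -0.23, limma adjusted p = 0.00932). Without the expression filter, the limma adjusted p for Angpt2 was 0.0624. The authors' deposited table gives Angpt2 a log2 fold change of -0.49 with q = 0.000643.

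Angpt2 (ID 11601, chromosome 8 from 18690263 to 18741562) lies inside the span of Mcph1, a gene of chromosome condensation and the DNA damage response. Mcph1 was at 0.0992 to 0.113 FPKM in KO and 0.147 to 0.184 FPKM in WT. It had 118 to 133 reads in KO and 183 to 237 in WT, while Angpt2 had 1714 to 2158 reads in KO and 2366 to 3373 in WT. Whether the counting used strand is not given in the sources used here, so reads of these overlapping genes may not be fully told apart.

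Angpt1, the activating ligand, was barely detected. It had 0.169, 0.143 and 0 FPKM in KO replicates 2, 3 and 4, against 0.131, 0.169 and 0.134 FPKM in WT replicates 2, 3 and 4. These values rest on 29, 24 and 0 reads in KO and 24, 30 and 24 reads in WT. KO replicate 4 stood apart and the other KO libraries lay within or at the edge of the WT range. A count of 0 with a floor of 3 reads allows up to 0.0184 FPKM in that library, by counting error alone. The exact two-sided permutation test over libraries gave p = 0.9 (3 against 3 allow no p below 0.1). Without a filter, the log2 fold change of Angpt1 was -0.06 (95% interval -0.21 to 0.10, limma adjusted p = 0.611), on a scale where the added 1 FPKM understates changes at this level. The ratio of the mean FPKM was 0.718, KO over WT. With limma-voom on the recovered reads, chosen after seeing the data, the log2 fold change was -1.75 (SE 1.00, adjusted p = 0.219). The authors' deposited table gives Angpt1 a log2 fold change of -0.42 with q = 0.784. Without KO replicate 4 the log2 fold change on log2(FPKM + 1) was 0.01 (limma adjusted p = 0.774). Angpt1 (ID 11600) spans 252311 bases of chromosome 15, from 42424667 to 42676977.

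KO replicate 4 had more genes at 0 reads than any other library, 1603 against 884 to 1099 in the other 5. Among genes with a mean of 15 to 40 reads and at least 10 reads in each of the other libraries, 11 of 818 had 0 reads in KO replicate 4. The same count gave 0 of 774 genes in KO replicate 2, 4 of 764 in KO replicate 3 and 0 to 2 genes in each WT library. Angpt1 is thus one of 11 such genes in that library, and the part of this in its value was not tested.

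Cells other than endothelium that make Angpt1 were followed through their markers. Mural cells, which wrap vessels, had 13 tested markers, of which 9 fell and 4 did not pass, with a median log2 fold change of -0.73. Over all tested genes 25.8% fell and the median was -0.03. The summed level of the mural markers was 611.5 to 796.6 FPKM in KO and 787.9 to 938.8 FPKM in WT, so the groups overlapped. No mural marker was at 0 in KO replicate 4. The pericyte gene Rgs5 fell to 109.4 ± 28.9 FPKM in KO, against 194.7 ± 27.8 FPKM in WT (SD, n = 3 each). Acta2, the actin gene of smooth muscle, had 145.3 ± 30.5 FPKM in KO and 144.6 ± 22.8 FPKM in WT. The summed level of 9 fibroblast markers was 15.5 to 18.4 FPKM in KO and 28.0 to 33.5 FPKM in WT. That of 7 platelet and megakaryocyte markers, another source of Angpt1, was 77.7 to 102.8 FPKM in KO and 28.4 to 51.8 FPKM in WT. The part of these cells in the level of Angpt1 was not tested.

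The balance of the ligands leaned far to Angpt2 in both genotypes. Angpt2 exceeded Angpt1 75.2-fold and 114.4-fold in KO replicates 2 and 3, against 178.8-fold, 100.3-fold and 166.1-fold in WT replicates 2, 3 and 4. KO replicate 4 gives no ratio, since Angpt1 was at 0 there. The groups overlapped, and the ratio was not tested.

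The fold changes of the whole experiment followed transcript length, and the members differ in length. The deposited values imply 13113 nt for Ptprb, 4916 nt for Tek, 4529 nt for Angpt1, 3879 nt for Tie1 and 3560 nt for Angpt2. Ptprb has the 314th longest transcript of the tested genes. The smooth trend over all tested genes had a log2 fold change of -0.45 at the length of Ptprb, -0.20 at that of Tek, -0.10 at that of Tie1 and -0.07 at that of Angpt2. Every one of these 4 genes lay below the trend.

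**Figure D2:**
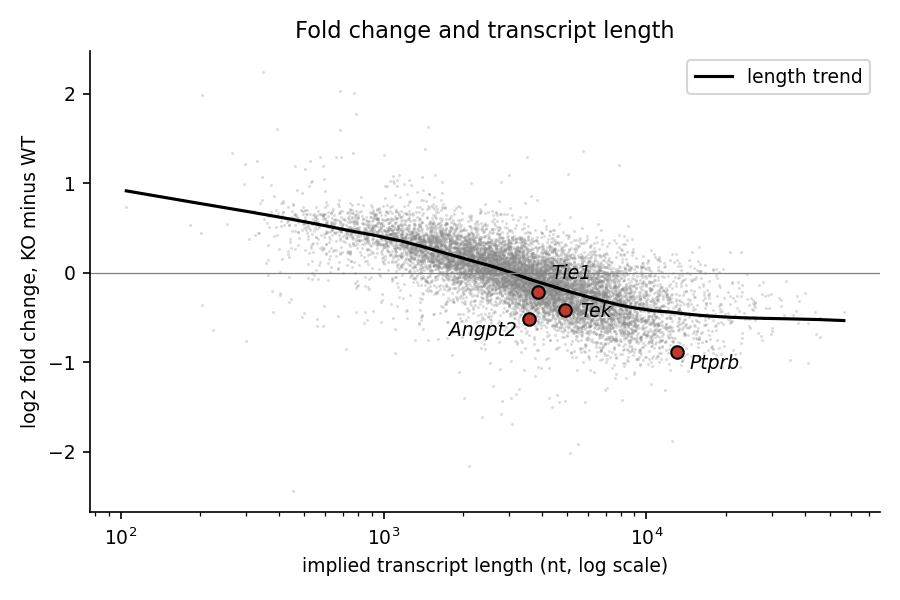
Log2 fold change (KO minus WT) of each tested gene against the transcript length implied by the deposited values, on a log axis. The black line is the length trend over all 10806 tested genes and red points are the members that passed the filter, all 4 below the line.

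With the length trend removed from each library, 9.39% of all tested genes were called lower in KO, 9.29% higher and 18.7% in either direction. Ptprb then had a log2 fold change of -0.44 (SE 0.0705, limma adjusted p = 0.00626), and Angpt2 one of -0.45 (SE 0.117, adjusted p = 0.031). Tek had -0.22 (SE 0.061, limma adjusted p = 0.0364) and Tie1 had -0.11 (SE 0.0777, limma adjusted p = 0.357). The order of the members thus changed: Ptprb and Angpt2 were level, with 4.54% and 4.23% of tested genes lower still. Genotype and the length trend cannot be told apart between these groups.

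**Figure D3:**
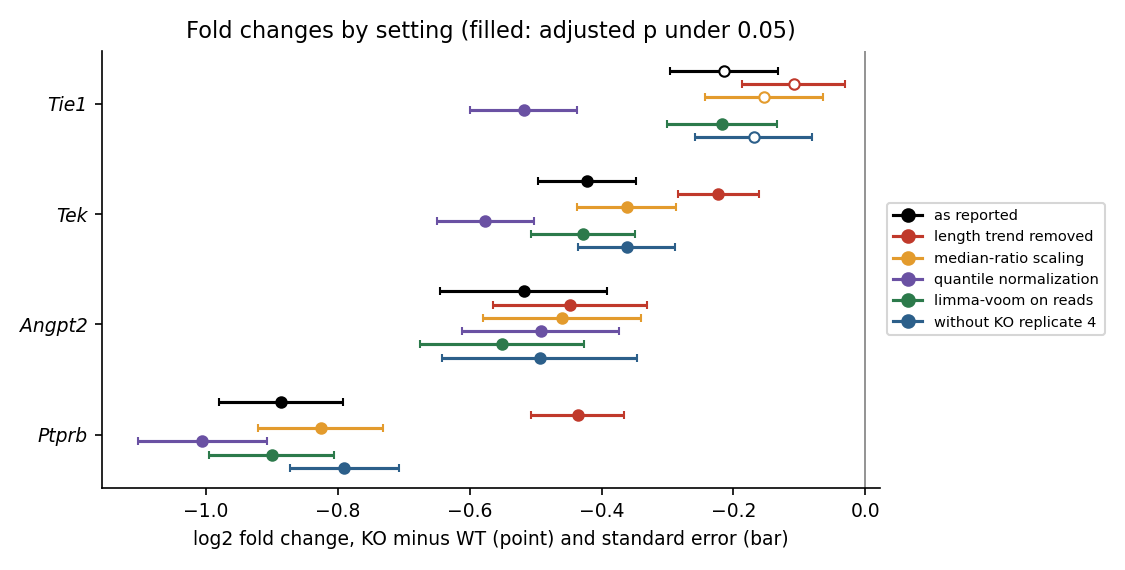
Log2 fold change (KO minus WT) of the 4 tested members as reported and under 5 other settings. Points are estimates, bars are standard errors and filled points have an adjusted p under 0.05; all points lie below 0, and Tie1 is filled with quantile normalization (-0.52) and with limma-voom (-0.22).

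A ratio of 2 genes within a library is not moved by a single scaling factor per library, but quantile normalization and removal of the length trend can move it. Tek was set against Cdh5, the gene of VE-cadherin, the adhesion protein of endothelial junctions and a partner of Ptprb. The Tek to Cdh5 ratio was 0.161, 0.158 and 0.164 in KO replicates 2, 3 and 4, against 0.158, 0.155 and 0.167 in WT replicates 2, 3 and 4. The ranges lay on top of each other, with a log2 difference of 0.01 (exact two-sided permutation p = 1.0). Cdh5 itself had 569.4 ± 52.4 FPKM in KO and 766.3 ± 14.1 FPKM in WT (SD, n = 3 each), and fell by 0.43 on the log2 scale (limma adjusted p = 0.00354). The log2 difference of this ratio was 0.27 with quantile normalization (exact two-sided permutation p = 0.1) and 0.09 with the length trend removed (exact permutation p = 0.2).

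Tie1 and Ptprb were also set against Tek. The Tie1 to Tek ratio was 3.69, 3.58 and 3.75 in the KO libraries, against 3.03, 3.41 and 3.09 in the WT libraries. The groups did not overlap and the log2 difference was 0.21. The Ptprb to Tek ratio was 0.609, 0.642 and 0.578 in the KO libraries, against 0.832, 0.811 and 0.893 in the WT libraries. Here too the groups were separate, with a log2 difference of -0.47. Each of these gave an exact two-sided permutation p of 0.1, the smallest that 3 against 3 allow, and 0.167 after adjustment over the 10 ratios tested. After removal of the length trend the log2 difference of the Tie1 to Tek ratio was 0.11 (exact permutation p = 0.2), and that of the Ptprb to Tek ratio was -0.21. Quantile normalization gave 0.06 for Tie1 to Tek (exact permutation p = 0.5) and -0.43 for Ptprb to Tek.

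**Figure D4:**
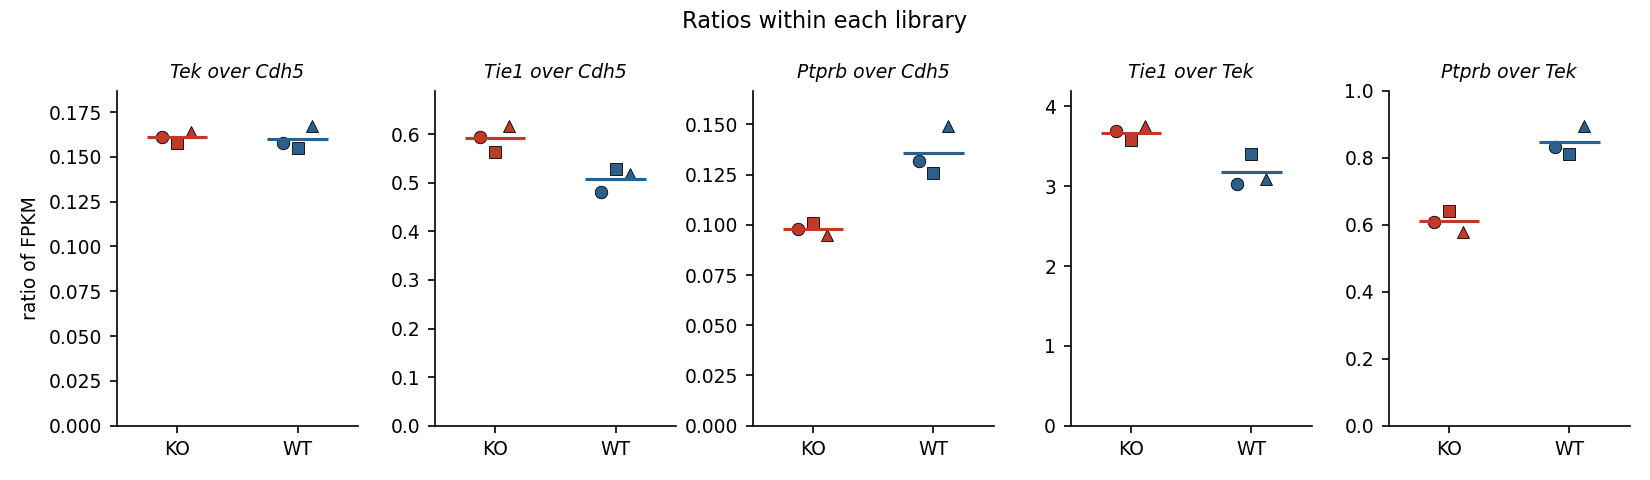
Ratio of FPKM values within each library for 5 pairs of genes, on linear axes from 0, with KO left of WT. Points are libraries, lines are group means; Tek over Cdh5 coincides between the genotypes, while the Ptprb ratios are lower and the Tie1 ratios higher in KO without overlap.

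The choice of endothelial denominator mattered. Against Cdh5, Tie1 was higher in KO (0.591 ± 0.0261 in KO and 0.509 ± 0.0252 in WT, SD, n = 3 each, log2 difference 0.22). Against Pecam1 it was at 0.551 ± 0.0198 in KO and 0.555 ± 0.0596 in WT. Tek against Pecam1 was lower in KO, at 0.147 to 0.152 in KO and 0.163 to 0.181 in WT. Ptprb had a log2 difference of -0.47 against Cdh5 and -0.69 against Pecam1. The ratios of Tie1 to Cdh5, Tek to Pecam1 and Ptprb to each gave an exact two-sided permutation p of 0.1, and 0.167 after adjustment. Pecam1 was chosen as a denominator after seeing the data. With Cdh5 the log2 difference of Ptprb was -0.12 with the length trend removed and -0.16 with quantile normalization. Pecam1 had a log2 fold change of -0.21 (limma adjusted p = 0.0709). Angpt2 against Cdh5 overlapped between the genotypes, at 0.0208 to 0.0279 in KO and 0.0218 to 0.0306 in WT (exact permutation p = 0.5).

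Other proteins that bind, cut or accompany the Tie receptors were examined as a list. Of 9 tested genes 7 fell and 2 did not pass, with a median log2 fold change of -0.48, against -0.03 over all tested genes. The integrin subunit gene Itgb1, whose product can bind Angpt2, had 204.7 ± 17.1 FPKM in KO and 303.6 ± 28.4 FPKM in WT (SD, n = 3 each, limma adjusted p = 0.00135). Adam17, the protease that sheds Tie1 from the cell surface, had 18.1 ± 1.96 FPKM in KO and 27.9 ± 2.83 FPKM in WT (limma adjusted p = 0.0016). Mmp14, a membrane-bound matrix metalloproteinase, had 43.4 ± 7.87 FPKM in KO and 67.6 ± 11.2 FPKM in WT (limma adjusted p = 0.00613). Once the trend was taken out 4 of the 9 fell, namely these 3 and Cdh5. Angpt4, the third angiopoietin, was at 0.0189 ± 0.0235 FPKM in KO and 0.0465 ± 0.0308 FPKM in WT, below the filter.

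Adaptor and PI3K-AKT-FOXO genes act downstream of Tek. Of 25 tested genes 13 fell, 1 rose and 11 did not pass, with a median log2 fold change of -0.23. Foxo1, the transcription factor that Tek signalling restrains, had 11.3 ± 0.618 FPKM in KO and 18.3 ± 2.12 FPKM in WT (limma adjusted p = 0.000853). Pik3r1, a regulatory subunit of PI3K, had 2.31 ± 0.264 FPKM in KO and 4.40 ± 0.328 FPKM in WT, and fell by 0.71 on the log2 scale. Ptpn11, the phosphatase SHP2 that docks on active Tek, and Iqgap1, a scaffold protein, fell by 0.52 and 0.62 on the log2 scale. Mapk3, the gene of the kinase ERK1, was the 1 that rose, with 359.3 ± 28.5 FPKM in KO and 266.1 ± 14.8 FPKM in WT. It was named after its values were seen, as was Akt1, which had 174.3 ± 3.61 FPKM in KO and 161.6 ± 6.20 FPKM in WT (limma adjusted p = 0.205). Net of the length trend 4 of the 25 fell and 1 rose, and Foxo1 had a log2 fold change of -0.40 (limma adjusted p = 0.0106). Pik3r1 then had -0.27 and did not pass (limma adjusted p = 0.0505).

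Targets of FOXO factors, of which Angpt2 is one, were listed apart. Of 15 tested genes 7 fell and 8 did not pass, with a median of -0.26. Insr, the insulin receptor gene, had 2.55 ± 0.0407 FPKM in KO and 5.41 ± 0.371 FPKM in WT, and fell by 0.85 on the log2 scale. Klf2, a transcription factor of flow-exposed endothelium, had 169.0 ± 18.5 FPKM in KO and 267.0 ± 27.9 FPKM in WT. Tsc22d3, a glucocorticoid-induced gene, and Trib1, a pseudokinase gene, fell by 0.41 and 0.49 on the log2 scale. Net of the length trend 4 of the 15 fell, and these were the 4 genes just named.

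Transcription factors known from the control of Tek, Tie1 or Angpt2 in endothelium were mostly lower. Of 16 tested genes 12 fell, 1 rose and 3 did not pass, with a median of -0.25. Ets1, a founding ETS family factor, had 96.4 ± 8.47 FPKM in KO and 140.5 ± 6.20 FPKM in WT (limma adjusted p = 0.000876). The ETS factor genes Elf1 and Etv6 fell by 0.49 and 0.44 on the log2 scale. The 1 that rose was Lyl1, a basic helix-loop-helix factor gene picked with its values known, with 19.2 ± 2.65 FPKM in KO and 13.4 ± 1.37 FPKM in WT. The count depended on the setting: 7 fell with median-ratio scaling or without KO replicate 4, and 4 fell with the length trend removed. Of all tested genes, 2389 of 10798 fell with median-ratio scaling, 2160 of 10716 without KO replicate 4 and 9.39% with the length trend removed. In that last setting Ets1 and Elf1 still fell, Etv6 did not pass (limma adjusted p = 0.124) and Lyl1 still rose (limma adjusted p = 0.0172).

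**Figure D5:**
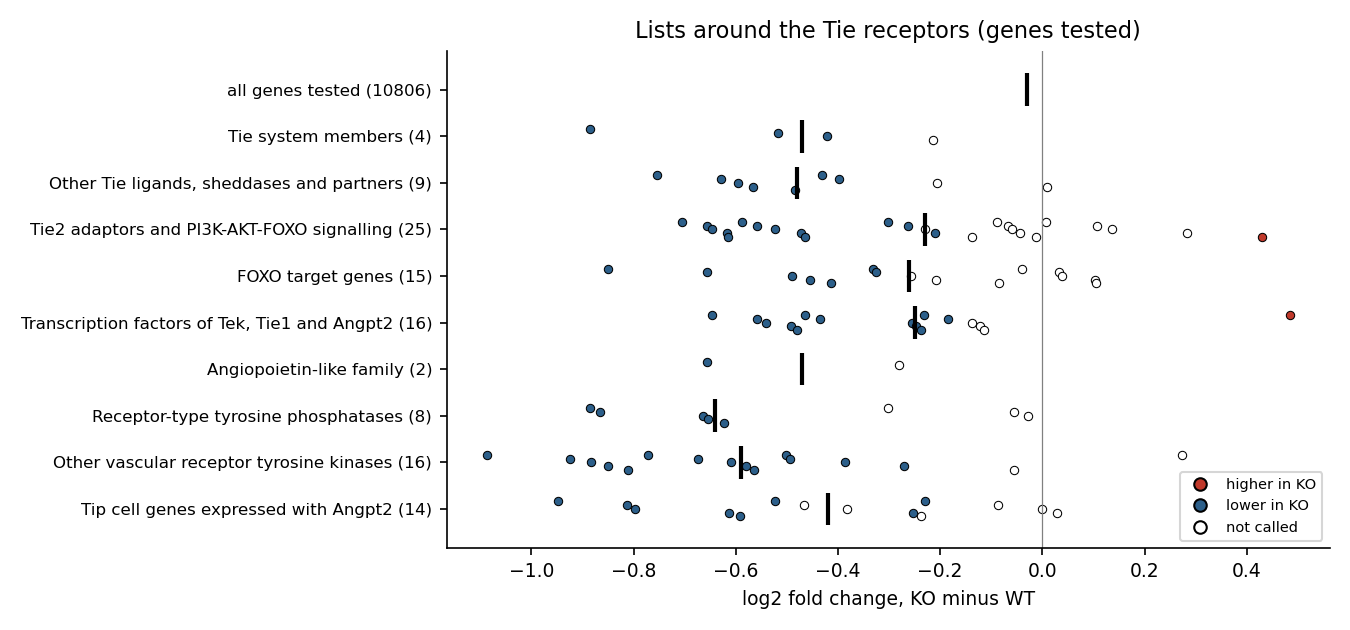
Log2 fold change (KO minus WT) of the tested genes of each list, with the number tested in parentheses. Points are genes (red higher in KO, blue lower in KO, white not called) and black bars are list medians, which lie between -0.64 and -0.23 for the lists and at -0.03 for all tested genes.

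Angpt2 marks sprouting tip cells, and other genes of such cells were listed. Of 14 tested tip cell genes 8 fell and 6 did not pass, with a median of -0.42. The netrin receptor gene Unc5b had 41.9 ± 5.06 FPKM in KO and 74.0 ± 1.42 FPKM in WT, and fell by 0.81 on the log2 scale (limma adjusted p = 0.000456). The Notch ligand gene Dll4 and the basement membrane genes Nid1 and Nid2 fell by 0.61, 0.95 and 0.80 on the log2 scale. Removing the length trend left 7 of the 14 lower and a median of -0.47. Without KO replicate 4, or with median-ratio scaling, 6 of the 14 fell, against 2160 of 10716 and 2389 of 10798 of all tested genes.

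Related receptor families were read beside the members. Of 8 tested receptor-type tyrosine phosphatases, a family that holds Ptprb itself, 5 fell and 3 did not pass, with a median of -0.64. Ptprg had 24.3 ± 3.10 FPKM in KO and 45.0 ± 2.82 FPKM in WT, Ptprm had 49.7 ± 5.01 FPKM in KO and 78.6 ± 3.45 FPKM in WT, and Ptprk fell by 0.67 on the log2 scale. Removing the length trend left 4 lower: Ptprb, Ptprg, Ptprm and Ptprk. Of 16 tested receptor tyrosine kinases of vessels other than the Tie receptors, 14 fell and 2 did not pass, with a median of -0.59. Among them the insulin-like growth factor receptor gene Igf1r, the stem cell factor receptor gene Kit and the ephrin receptor gene Epha2 fell by 0.92, 0.88 and 0.61 on the log2 scale. Removing the length trend left 9 of the 16 lower.

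The genes whose profiles over the 6 libraries were most like those of the members were found by the root mean square distance between centred log2(FPKM + 1) values. For Tek these were Cnnm3 and Nipal3, with distances of 0.0231 and 0.0232. For Tie1 they were Llgl1 and Cep170b, with distances of 0.025 and 0.0281. For Angpt2 they were Igfbp3, a growth factor binding protein gene that was also on the tip cell list, and Nemp1, with distances of 0.0475 and 0.0494. For Ptprb they were Nfat5, an osmotic stress factor gene, and Ptprg, with distances of 0.0334 and 0.0335. Tek and Tie1 were 0.118 apart, with Tie1 1663rd in nearness to Tek and Tek 1508th in nearness to Tie1 among the tested genes. Ptprb was 0.351 from Tie1, the farthest pair of members. Centring was over all 6 libraries, so the distances include the difference between genotypes and are not independent of the fold changes.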

How the data were processed

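Groups and replicate numbers come from the sample titles. Per the labels' protocols, TRIzol served for RNA extraction and a stranded TruSeq mRNA kit for the libraries. The authors deposited FPKM for each gene in every library. Per the file headers, the authors' own comparison of 17686 genes gives a normalized mean signal per genotype, a fold (ratio) with its log2, a p-value and a q-value. Per the submitters' processing notes, which give no roles, the build was mm10 and the tools included HISAT2 2.1.0, featureCounts 1.6.2, StringTie 1.3.4d, fastp 0.19.3 and DESeq2 1.22.1. Coordinates are from the RefSeq annotation of GRCm38.p6.

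Solving FPKM against the group means gave whole reads (up to 1000 reads, 100.0% of values fell within 0.05 of a whole number) and implied transcript lengths. The read floor covers counting error only, while the 95% intervals are limma's and rest on the spread between libraries. The 5 members and all lists were chosen with earlier results of these data known. Genes reaching 1 FPKM in 3 or more libraries entered limma 3.58.1 (R 4.3.3) with genotype as the single term and a mean-variance trend, on log2(FPKM + 1). The scripts were tested on simulated data. The length trend was a loess curve (span 0.3) on log2 length, removed per library. Of the 216 list symbols 211 were found; up to 4 tested members per list with the smallest p, up to 3 most abundant markers per cell type, and the 2 genes most like each member were eligible to be named. Other settings tried were quantile normalization, median-ratio scaling, other filters, a pseudocount of 0.1, a replicate block, limma-voom on the recovered reads, and each library left out. Python 3.11.15 with numpy 2.4.6, pandas 2.3.3 and scipy 1.17.1 was used.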

Additional observations from a re-analysis of the deposited data

How the results depend on the processing

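Ptprb kept its call as lower under all 15 alternatives, and its log2 fold change was -0.94 to -0.79 with each library left out in turn. Tek (-0.48 to -0.36 with a library left out) and Angpt2 (-0.65 to -0.43) kept theirs except with the length trend removed together with a replicate block (Tek -0.22, adjusted p = 0.114; Angpt2 -0.45, adjusted p = 0.094) and, for Angpt2, without a filter (-0.52, adjusted p = 0.0624); the cause was not tested. Tie1 passed as lower with quantile normalization (-0.52, adjusted p = 0.00217), with limma-voom on recovered reads (-0.22, adjusted p = 0.0473), without KO replicate 2 (adjusted p = 0.0452) and without WT replicate 2 (adjusted p = 0.0396), and ranged from -0.27 to -0.17 with a library left out. The log2 fold change of Angpt1 turned to 0.014 without KO replicate 4 and without a filter, a setting chosen after seeing the data. Called genes numbered 4772, 3284 to 4346 with a library left out, 2019 with the length trend removed, 718 with that and a replicate block, and 100 where a log2 change of 1 or more was also required. With median-ratio scaling 2577 genes were higher and 2389 lower, against 1982 and 2790, and the median of all genes was 0.02 in place of -0.03. The Tek to Cdh5 ratio changed sign around 0 (-0.017 to 0.039 with a library left out) and was 0.27 with quantile normalization and -0.22 with Pecam1 as denominator, chosen after seeing the data, as was the Tie1 ratio of -0.007. The Angpt2 to Cdh5 ratio was 0.35 with quantile normalization and -0.272 to 0.016 with a library left out. Same-numbered libraries deviated from their group means with correlations of -0.195, -0.349 and -0.222, and none correlated best with its own number. Libraries of different numbers gave 0.00248 to 0.199. Deviations from a group mean sum to 0 within the group, so these correlations constrain each other. They cannot decide whether same-numbered libraries were paired. The replicate block alone gave 3749 calls and changed no member's call. No ratio of Angpt2 to Angpt1 could be tested, since KO replicate 4 held no Angpt1 reads.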

Other observations

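Most angiopoietin-like proteins share a fold with the angiopoietins but not their receptors, and 2 of the 7 genes passed the filter. Angptl2, a secreted gene of stressed and inflamed tissue, had 3.60 ± 0.787 FPKM in KO and 6.20 ± 0.641 FPKM in WT (SD, n = 3 each), and fell by 0.66 on the log2 scale (limma adjusted p = 0.00345). Angptl4, an inhibitor of lipoprotein lipase that fasting and hypoxia induce, had 26.0 ± 10.8 FPKM in KO and 30.1 ± 3.06 FPKM in WT (limma adjusted p = 0.376). Its KO libraries spread more widely than its WT libraries.

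Beside the members, the summed level of 10 endothelial markers, Tek and Tie1 among them, overlapped between the genotypes, at 3872.5 to 4199.1 FPKM in KO and 4137.4 to 4224.5 FPKM in WT. Of these markers 2 rose, 4 fell and 4 did not pass, where 18.3% of all tested genes rose and 25.8% fell. Net of the length trend 0 rose, 3 fell and 7 did not pass, where 9.29% of all tested genes rose and 9.39% fell. With quantile normalization 7 fell and 3 did not pass. Quantile normalization called 2381 of all 10806 tested genes lower. Egfl7, a short secreted endothelial gene, rose to 1000.9 ± 57.0 FPKM in KO, against 789.2 ± 64.2 FPKM in WT (limma adjusted p = 0.0123); net of the length trend its difference was 0.10 on the log2 scale (limma adjusted p = 0.466). The summed level of 10 monocyte and macrophage markers was 224.6 to 346.3 FPKM in KO and 92.3 to 225.6 FPKM in WT, which just overlap. Lyz2 made up much of it, with 142.8 to 228.3 FPKM in KO and 58.1 to 149.2 FPKM in WT. Of the 10 markers 6 rose and 4 did not pass, while net of the length trend 2 rose and 8 did not pass. The summed level of 6 neutrophil markers was 35.3 to 56.3 FPKM in KO and 14.8 to 19.2 FPKM in WT. That of 8 lymphocyte markers was 16.9 to 26.3 FPKM in KO and 8.49 to 10.4 FPKM in WT. In both of these lists the 3 tested markers rose. They also did so net of the length trend, with the median falling from 1.25 to 0.72 for neutrophils and from 0.88 to 0.54 for lymphocytes. Of the 13 mural markers 8 fell net of the length trend, with a median of -0.64, where 9.39% of all tested genes fell. Lymphatic endothelial markers, 7 in all, summed to 83.5 to 134.0 FPKM in KO and 164.7 to 192.6 FPKM in WT. Cardiomyocyte markers, 10 in all, summed to 180.2 to 214.5 FPKM in KO and 137.3 to 198.5 FPKM in WT. The sum of 7 mesothelial and Schwann cell markers was lower in all KO libraries than its WT range of 12.2 to 13.7 FPKM. Ly6g, Msln, Upk3b and Sox10 were at 0 in KO replicate 4, but they were barely detected in any library. Ly6g and Msln were above 0 only in WT replicate 3 (0.0273 and 0.047 FPKM), and Upk3b only in KO replicate 3 (0.0132 FPKM). Sox10 was also at 0 in WT replicate 2 and reached at most 0.0841 FPKM. No marker was at 0 in every library. The part of these cells in the levels of Tek, Tie1, Ptprb and Angpt2 was not tested.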
